A study of Homo sapiens with 10 samples.

Results

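The genes of the mTOR complexes and of the TSC-RHEB switch that controls them were followed through 6 chromatin immunoprecipitation sequencing (ChIP-seq) libraries of 22RV1, an established human prostate cancer cell line. The 10 genes were taken as a fixed list out of 20037 protein-coding genes: MTOR, RPTOR, RICTOR, MLST8, AKT1S1, DEPTOR, MAPKAP1, TSC1, TSC2 and RHEB. The libraries form 3 pairs. An siRNA against RB1, which encodes the retinoblastoma protein RB, is set against a control siRNA. A plasmid for HA-tagged RB residues 245-255 as the sample titles give them (244-255 in the design text), HA-RB(245-255), is set against its empty vector, EV(245-255). A plasmid for an HA-tagged insert named RBN, which the labels do not explain, is set against its own empty vector, EV(RBN). All were transfected 22RV1 cells, so RB changes were made by siRNA or plasmid in 1 cell line, and neither the loss of RB1 nor the amount of each construct can be read from these files. The labels do not name the antibody, while the title of the series names TRIM24, a reader of histone marks that regulates transcription, together with the RB residues S249 and T252, mTOR signalling and the phosphatase DUSP2. For HA-RB(245-255) the genotype label reads as a control and the sample title names the construct, and the title was followed. There was 1 library per group, so no difference between conditions has a replicate check or a p-value.

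MTOR is a protein kinase that joins growth factor, energy and amino acid signals to protein synthesis and cell growth. It works in a pair of complexes. In mTORC1 it is bound to RPTOR, the scaffold that brings in substrates, and is held back by AKT1S1 (also called PRAS40). In mTORC2, which phosphorylates AKT, it is bound to RICTOR and to MAPKAP1 (also called SIN1). MLST8 and the inhibitor DEPTOR belong to both complexes. RHEB is the small GTPase that switches mTORC1 on at the lysosome, and TSC1 and TSC2 form the complex that switches RHEB off.

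Each peak list gives 1 summit per interval, the position of its highest stack of DNA fragments. The number of fragments in that stack was recovered from the deposited fold enrichment and p-value, and was divided by the background of the library, 0.187 to 0.634 fragments, to give an enrichment. A gene end summit is one that lies no more than 1 kb from the first or last base of a gene. The siRNA lists and the 245-255 lists tile nearly all of the chromosomes with intervals of 18225 to 83581 bp (medians), whereas the median interval was 522 bp in HA-RBN and 450 bp in EV(RBN). A wide interval names only its highest stack, so a gene end inside one without a summit of its own held at most as many fragments as that stack. That number is given below as an upper limit.

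At the gene ends, AKT1S1 and RHEB had the highest median enrichments among the 10 genes, and each of the other 8 had a lower one. In the siRNA pair, RB1 siRNA gave 3 genes with a gene end summit, against 33.5% of all genes, and the control siRNA gave 4, against 28.1% of all genes. In HA-RB(245-255) 9 of the 10 had one, against 45.5% of all genes, and in EV(245-255) 8 of 10, against 45.4%. In HA-RBN all 10 had one, against 73.4% of all genes, and in EV(RBN) 9 of 10, against 60.2%. The shares of the 10 genes thus lay above those of all genes in the plasmid libraries and near them in the siRNA libraries. In EV(RBN) this was lost with a 0.5 kb window, where 4 of the 10 had a summit beside 45.4% of all genes, and with at least 10 fragments, where 1 had one beside 11.3%. DEPTOR and RHEB had a gene end summit in all 6 libraries, as had 13.1% of all genes. RICTOR and TSC1 had one in 5, MTOR, RPTOR, AKT1S1 and TSC2 in 4, MAPKAP1 in 3 and MLST8 in 2.

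**Figure D1:**
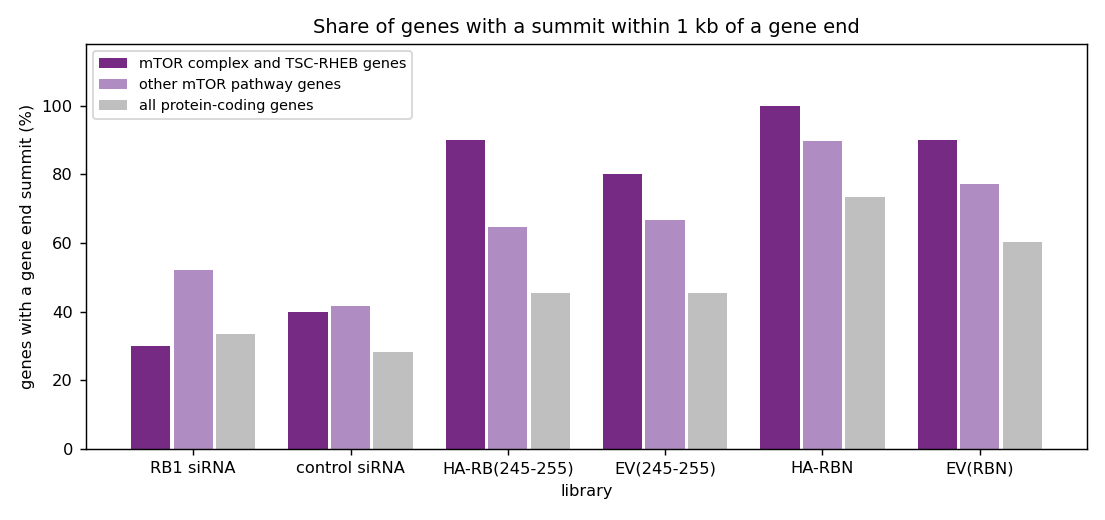
Share of genes with a summit within 1 kb of a gene end (vertical axis, percent) in each library (horizontal axis), for the 10 mTOR complex and TSC-RHEB genes, 48 other mTOR pathway genes and all 20037 protein-coding genes. The 10 genes reach 90% and 80% in HA-RB(245-255) and EV(245-255), against 30% and 40% in RB1 siRNA and control siRNA.

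RefSeq promoter windows (GRCh38.p14, 250 bases before to 50 after an annotated start) were at hand for 7 of the 10 genes: MTOR, RPTOR, RICTOR, MAPKAP1, TSC1, TSC2 and RHEB. MLST8, AKT1S1 and DEPTOR had no window. The windows of 6 genes are shown because summits of the libraries fell inside them, 4 at RHEB, 4 at RICTOR, 5 at TSC1, and 2 each at TSC2, MTOR and MAPKAP1. All read 5′ to 3′ along the gene. Capitals mark matches, on either strand, to the GC box GGGCGG, to CCAAT (bound by NF-Y), to the ETS core CCGGAAG, to the E-box CACGTG and to GCATGCGC, part of the NRF1 motif.
RHEB, chr7:151519846-151520145, minus strand: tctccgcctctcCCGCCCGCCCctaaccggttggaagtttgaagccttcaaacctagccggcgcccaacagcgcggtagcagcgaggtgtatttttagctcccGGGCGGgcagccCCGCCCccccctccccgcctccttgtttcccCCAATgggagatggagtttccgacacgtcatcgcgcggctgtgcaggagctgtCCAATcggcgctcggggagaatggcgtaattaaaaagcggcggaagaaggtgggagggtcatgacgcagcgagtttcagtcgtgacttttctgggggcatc
RICTOR, chr5:39074350-39074649, minus strand: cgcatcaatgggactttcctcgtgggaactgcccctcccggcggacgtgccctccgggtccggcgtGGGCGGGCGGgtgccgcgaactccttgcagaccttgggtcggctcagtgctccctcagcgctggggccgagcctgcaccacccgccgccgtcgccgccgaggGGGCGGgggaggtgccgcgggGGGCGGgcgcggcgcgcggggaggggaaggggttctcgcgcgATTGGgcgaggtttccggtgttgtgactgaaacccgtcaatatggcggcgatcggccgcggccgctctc
TSC1, chr9:132944567-132944866, minus strand: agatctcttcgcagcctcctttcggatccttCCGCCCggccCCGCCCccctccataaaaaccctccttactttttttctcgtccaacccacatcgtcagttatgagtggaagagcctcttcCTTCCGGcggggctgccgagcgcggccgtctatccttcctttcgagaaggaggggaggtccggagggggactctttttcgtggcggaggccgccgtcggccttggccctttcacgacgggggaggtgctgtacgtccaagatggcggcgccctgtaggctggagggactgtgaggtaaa
TSC2, chr16:2047735-2048034, plus strand: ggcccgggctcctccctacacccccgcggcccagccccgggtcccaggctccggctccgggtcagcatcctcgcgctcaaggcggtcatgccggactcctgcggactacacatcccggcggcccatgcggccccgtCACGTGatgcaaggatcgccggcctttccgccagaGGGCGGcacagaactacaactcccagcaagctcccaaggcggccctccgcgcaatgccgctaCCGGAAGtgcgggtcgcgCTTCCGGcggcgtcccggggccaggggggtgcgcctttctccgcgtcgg
MTOR, chr1:11262502-11262801, minus strand: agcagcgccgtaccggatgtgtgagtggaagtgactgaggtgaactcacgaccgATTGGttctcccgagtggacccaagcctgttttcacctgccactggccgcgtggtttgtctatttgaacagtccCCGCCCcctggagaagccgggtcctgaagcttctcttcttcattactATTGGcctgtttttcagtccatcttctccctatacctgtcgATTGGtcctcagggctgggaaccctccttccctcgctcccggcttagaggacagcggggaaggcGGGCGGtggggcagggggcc
MAPKAP1, chr9:125707159-125707458, minus strand: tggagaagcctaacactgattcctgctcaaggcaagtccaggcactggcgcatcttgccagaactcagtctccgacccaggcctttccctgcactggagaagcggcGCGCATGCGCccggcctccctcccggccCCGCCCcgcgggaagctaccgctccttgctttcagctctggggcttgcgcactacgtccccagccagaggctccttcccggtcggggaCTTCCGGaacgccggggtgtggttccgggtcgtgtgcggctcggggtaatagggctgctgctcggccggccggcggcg

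The GC box stood in the windows of 6 of the 7 genes, all but RPTOR, beside 56.3% of 22199 windows of protein-coding genes. Neighbouring GC boxes overlap in the RHEB and RICTOR windows. CCAAT stood in the windows of MTOR, RICTOR and RHEB, beside 34.7% of windows. The ETS core stood in those of TSC1, TSC2 and MAPKAP1, beside 12.8%, and CACGTG in that of TSC2, beside 8.34%. MAPKAP1 also held GCATGCGC on both strands with an overlap, beside 3.74% of windows. The E2F letters TTTCCCGC (1.99% of windows) and TTTGGCGC (0.815%) and the nuclear receptor core AGGTCA (11.9%) were in none of the 7. The RPTOR window had no match to any of these motifs, was 48.0% G or C against a median of 62.3% over all windows, and held no summit. The RICTOR window was 74.0% G or C with 42 CpG pairs, and the median window held 21.

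RHEB, the activator of mTORC1, lies on the minus strand of chromosome 7 from 151466012 to 151519895 (hg38). At its start the summit held 117 fragments with RB1 siRNA and 94 with the control siRNA. It held 43 fragments in HA-RB(245-255) and 48 in EV(245-255), and 42 in HA-RBN and 11 in EV(RBN). In the libraries with RB1 siRNA, control siRNA, HA-RB(245-255) and EV(245-255) the summit lay 228, 185, 227 and 282 bp upstream of the annotated start. In HA-RBN it lay 57 bp upstream and in EV(RBN) 186 bp downstream. As enrichment these stacks were 217 with RB1 siRNA and 228 with the control siRNA, then 172 in HA-RB(245-255), against 256 in EV(245-255), and 66.2 in HA-RBN and 30.01 in EV(RBN). The RHEB stack was taller than 94.3% of all gene ends with a summit in the RB1 siRNA library and than 91.5% in the control siRNA library. The shares were 93.2% in HA-RB(245-255) and 94.4% in EV(245-255), and 93.8% in HA-RBN and 86.2% in EV(RBN).

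AKT1S1, the mTORC1 inhibitor on chromosome 19 from 49869033 to 49878356, held the tallest stacks of the 10 genes in every library. The site lies inside the gene, near its upper end. It had 164 fragments with RB1 siRNA and 191 with the control siRNA, then 68 in HA-RB(245-255), against 69 in EV(245-255), and 204 in HA-RBN and 88 in EV(RBN). The enrichments were 304 with RB1 siRNA and 462 with the control siRNA, then 272 in HA-RB(245-255), against 368 in EV(245-255), and 322 in HA-RBN and 240 in EV(RBN). The 1 kb line cuts through this site. The summit lay 918 bp from the gene end with RB1 siRNA, 974 bp in HA-RB(245-255) and 876 bp in EV(245-255), which count as gene end summits. It lay 1022 bp away with the control siRNA, 1257 bp in HA-RBN and 1372 bp in EV(RBN), which do not. The same summits lie 222 to 718 bp from the lower end of the neighbouring gene TBC1D17 (49877702 to 49888750), so they cannot be assigned to 1 of the genes. Near the lower end of AKT1S1 a further summit held 45 fragments in HA-RBN and 11 in EV(RBN). That of HA-RBN lay 0.605 kb from the end, and AKT1S1 counts among the 10 genes of HA-RBN through it alone. That of EV(RBN), 433 bp from it, fell beyond the 1 kb line and does not count.

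DEPTOR, the inhibitor shared by both complexes, lies on chromosome 8 from 119873722 to 120050918. The summit at its lower end held 44 fragments with RB1 siRNA and 34 with the control siRNA, then 13 in HA-RB(245-255), against 14 in EV(245-255), and 23 in HA-RBN and 7 in EV(RBN). All 6 summits lay within 306 bp of that end. The enrichments were 81.7 with RB1 siRNA and 82.3 with the control siRNA, then 52.0 in HA-RB(245-255), against 74.7 in EV(245-255), and 36.3 in HA-RBN and 19.1 in EV(RBN).

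The gene end stacks of TSC1 and TSC2, the brake on RHEB, were lower than that of RHEB in every library in which they had one. TSC1 lies on the minus strand of chromosome 9 (132891349 to 132945378), with an annotated start at 132944616. Its summit held 20 fragments in the control siRNA library. It held 10 in HA-RB(245-255) and 13 in EV(245-255), and 15 in HA-RBN and 6 in EV(RBN), each 30 to 184 bp upstream of that start. With RB1 siRNA the end of TSC1 fell in an interval whose summit was 85.1 kb away and held 19 fragments. TSC1 therefore had at most 19 fragments (enrichment 35.3) with RB1 siRNA, against 20 (enrichment 48.4) with the control siRNA. No counting interval was taken for this limit, so it does not show a lower level with RB1 siRNA. TSC2, on the plus strand of chromosome 16 from 2047985 to 2089491, had 10 fragments in HA-RB(245-255) and 10 in EV(245-255), and 15 in HA-RBN and 5 in EV(RBN). In the siRNA pair it had no summit, with upper limits of 75 fragments for RB1 siRNA and 55 for the control siRNA. The TSC2 summits in HA-RB(245-255) and EV(245-255) also lay 136 and 20 bp from the start of NTHL1, a DNA repair gene read in the opposite direction. That of HA-RBN lay 497 bp from the NTHL1 start. That of EV(RBN) lay inside NTHL1, 715 bp from its start and 866 bp from the TSC2 start. The TSC2 summits therefore cannot be assigned to 1 of the genes. The TSC1 summits lay 731 to 885 bp from the start of GFI1B.

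RICTOR, the mTORC2 scaffold on the minus strand of chromosome 5 from 38937920 to 39074399, had 21 fragments with the control siRNA. It had 13 in HA-RB(245-255) and 11 in EV(245-255), and 15 in HA-RBN and 6 in EV(RBN). Of these 5 summits, 4 lay 112 to 231 bp upstream of the start and that of EV(RBN) 741 bp upstream. With RB1 siRNA the whole gene lay in 1 interval of 771 kb whose summit, 414 kb away, held 31 fragments. This limit is above the 21 fragments of the control siRNA, so the missing summit does not show a lower level. MAPKAP1, the second mTORC2 subunit, on the minus strand of chromosome 9 from 125437394 to 125707208, had 4 fragments at its start in HA-RB(245-255) and 8 in HA-RBN. In EV(245-255) its start fell in an interval with a summit of 37 fragments, 39.3 kb away. The intervals of RB1 siRNA and control siRNA had their summits at the same distance, with 167 and 165 fragments. In EV(RBN) MAPKAP1 showed 3 fragments near the other end and no summit at the start.

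MTOR, the kinase itself, on the minus strand of chromosome 1 from 11106535 to 11262551, had 14 fragments in HA-RB(245-255), 122 bp upstream of its start. No interval of EV(245-255) reached the 1 kb window around that start, and the one gene end summit of MTOR there, with 5 fragments, was at the other end of the gene. In the RBN pair the start had 11 fragments in HA-RBN, 708 bp upstream, and 5 in EV(RBN), 25 bp upstream. No interval of the RB1 siRNA library reached the start, and the interval of the control siRNA library had its summit of 69 fragments 10.9 kb away. RPTOR, the mTORC1 scaffold on the plus strand of chromosome 17 from 80544838 to 80966368, had 5 fragments at its start in HA-RB(245-255) and 6 in EV(245-255). In HA-RBN it had 6 at its start and 7 at its upper end, and in EV(RBN) 3 at its upper end only. Its upper limits in the siRNA pair were 22 fragments for RB1 siRNA and 17 for the control siRNA. MLST8, the subunit of both complexes on chromosome 16 from 2205454 to 2209453, held 22 fragments near its lower end in HA-RBN and 7 in EV(RBN). Its upper limits were 74 with RB1 siRNA and 61 with the control siRNA, and 30 in HA-RB(245-255) and 37 in EV(245-255).

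**Figure D2:**
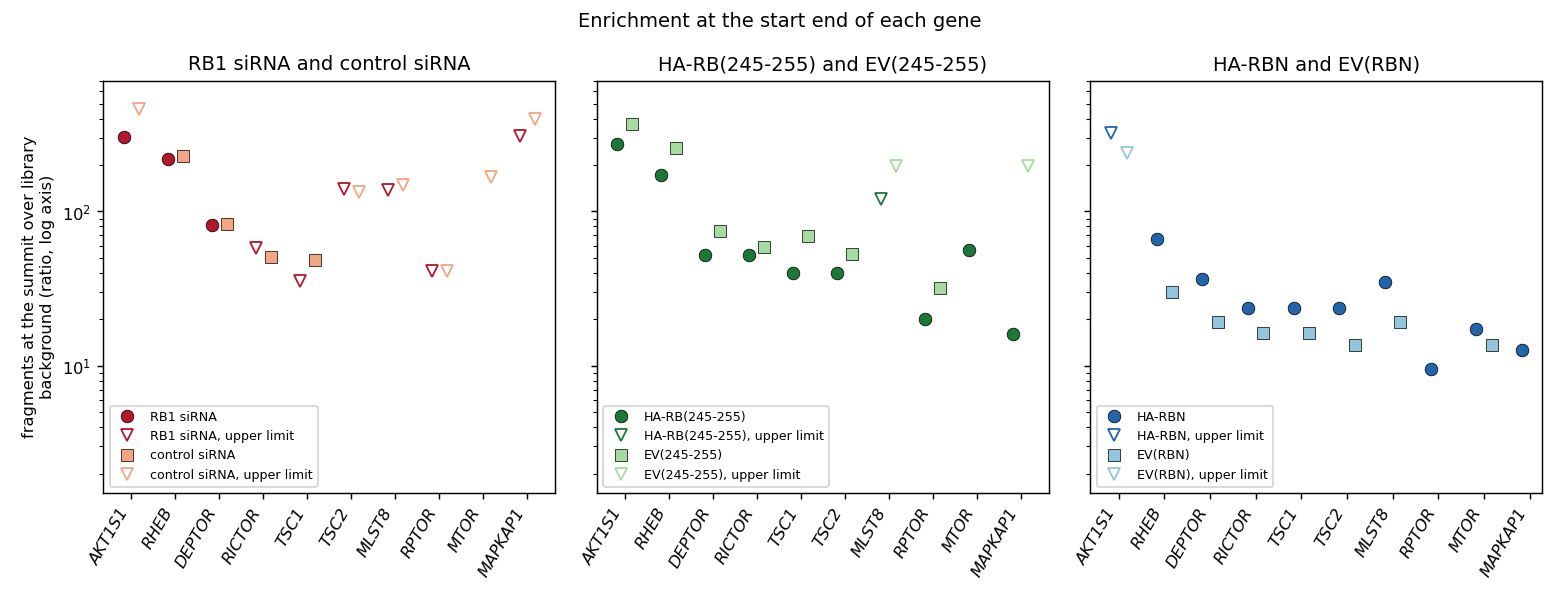
Enrichment (fragments at the summit over the library background, log axis) at the start end of each gene, or for AKT1S1, DEPTOR and MLST8 at the end with most summits, in the 3 pairs of libraries. Filled marks are gene end summits and open triangles are upper limits from the highest stack of an interval that reaches within 1 kb of the end. The AKT1S1 intervals of HA-RBN and EV(RBN) stop short of the end. Their triangles show the stack of the AKT1S1 site itself, over 1 kb from the end. The filled RHEB marks run from 30.01 to 256, and the filled RICTOR, TSC1 and TSC2 marks from 13.6 to 69.4.

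By the median enrichment over the libraries with a summit at that end, the order was AKT1S1 (304, 3 libraries), RHEB (195, 6), DEPTOR (63.4, 6), RICTOR (50.8, 5), TSC1 (40.0, 5), TSC2 (31.8, 4), MLST8 (26.9, 2), RPTOR (20.0, 3), MTOR (17.3, 3) and MAPKAP1 (14.3, 2). RHEB was above DEPTOR in 6 of 6 libraries, and the AKT1S1 site above RHEB in 6 of 6. From RHEB down, the range of each gene over its libraries overlapped that of the next, from 12.6 to 16.0 for MAPKAP1 to 30.01 to 256 for RHEB. The libraries behind the medians also differ, so the order from DEPTOR to MAPKAP1 is not separated beyond this spread. The 3 genes whose enrichment over the 6 libraries was most like that of RHEB were sought among the 2626 genes with a gene end summit in all of them. They were CTCF, KCTD7 and CNGA4, at Euclidean distances of 0.227, 0.359 and 0.382 in log2 enrichment.

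**Figure D3:**
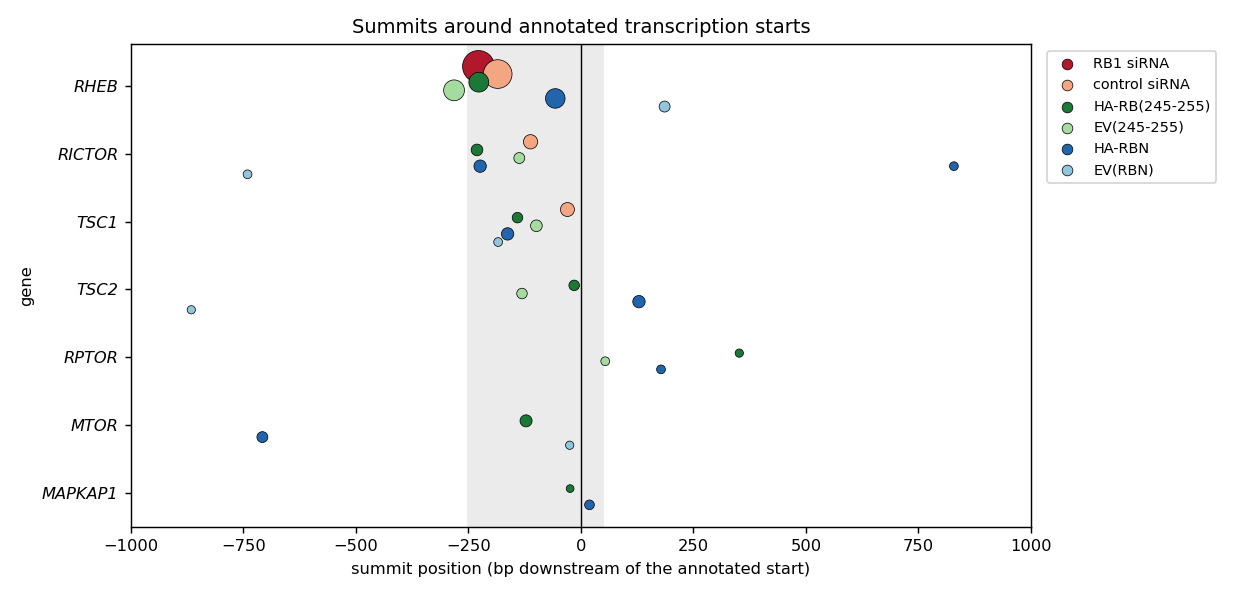
Position of each summit within 1000 bp of the annotated start (horizontal axis, bp downstream of the start) for the 7 genes with a RefSeq promoter window. Circle area grows with the number of fragments, colours are libraries and the grey band is the promoter window. RHEB has the largest circles, 57 to 282 bp upstream of the start in 5 libraries and 186 bp downstream in EV(RBN).

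Around annotated starts, 7 of the 7 genes had a summit at the start end in HA-RB(245-255) and 5 of 7 in EV(245-255). In HA-RBN 7 had one and in EV(RBN) 5, while 1 had one with RB1 siRNA and 3 with the control siRNA. Over 15843 genes with a known strand, the shares at the start end were 43.2% in HA-RB(245-255) and 43.2% in EV(245-255), 67.2% in HA-RBN and 53.3% in EV(RBN), and 33.4% with RB1 siRNA and 28.1% with the control siRNA.

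Within each pair, ratios could be taken for 2, 7 and 5 of the 10 genes, and none of them passed 1 log2 unit when centred on all shared gene ends. The ratio was taken where both libraries had a summit within 1 kb of the same gene end and within 500 bp of each other. It is given on the log2 scale relative to the median of all such shared ends, which was −0.12 in the siRNA pair, −0.42 in the 245-255 pair and 0.51 in the RBN pair before centring. A ratio over 1 log2 unit from that median was called. Exact binomial (Clopper-Pearson) 95% intervals cover counting error only.

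For RB1 siRNA against the control siRNA, 2 of the 10 genes had a shared end. RHEB had a relative log2 ratio of 0.05 (95% interval −0.35 to 0.46) and DEPTOR of 0.11 (−0.57 to 0.80). Scaled by the library background alone, these were −0.07 and −0.01, so their sign depends on the scaling. Neither was called, beside 1.64% of 3835 shared ends called higher and 0.808% called lower with RB1 siRNA. The AKT1S1 summits, which the 1 kb line separates, lay 104 bp apart and had a relative log2 ratio of −0.48 (−0.79 to −0.17). With this centring it is the one site of the 10 genes whose counting interval leaves out 0 in any pair. It was compared after the values were seen. The central 95% of all shared ends in that pair ran from −0.77 to 0.86. That range cannot discount the site, because gene end summits at large held fewer fragments, a median of 28 with RB1 siRNA and 25 with the control siRNA. Scaled by background the ratio at the site was −0.60 (−0.91 to −0.29). Scaled by the median of all shared summits it was −0.48 (−0.79 to −0.17). No gene of the 10 was listed at an end in 1 siRNA library while the other had no interval within 1 kb of either end, beside 0.18% of all genes for RB1 siRNA only and 0.11% for the control siRNA only. Judged at the same end of the gene, the count was also 0, beside 1.03% for RB1 siRNA and 0.918% for the control siRNA.

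For HA-RB(245-255) against EV(245-255), 7 genes had a shared end. The relative log2 ratio was 0.24 (−1.03 to 1.54) at RICTOR, 0.00 (−1.42 to 1.42) at TSC2, −0.02 (−0.53 to 0.48) at AKT1S1 and −0.11 (−1.32 to 1.09) at DEPTOR. It was −0.16 (−0.79 to 0.47) at RHEB, −0.26 (−2.31 to 1.71) at RPTOR and −0.38 (−1.73 to 0.93) at TSC1. The median was −0.11, beside 0 over all 5555 shared ends, whose SD was 0.56. None was called, beside 2.32% of shared ends called higher and 3.04% called lower in HA-RB(245-255). Scaled by background, again none of the 7 was called, while the shares of all shared ends were 1.21% higher and 14.1% lower. None of the 10 genes was listed in 1 library with no interval of the other at either end, beside 0.165% of all genes for HA-RB(245-255) and 0.215% for EV(245-255). Here too absence could hardly be scored, with intervals within 1 kb of an end of 19931 genes in HA-RB(245-255) and 19946 in EV(245-255). Judged at the same end, MTOR was listed only in HA-RB(245-255), with the 14 fragments at its start, beside 1.4% of all genes. None of the 10 genes was listed only in EV(245-255), beside 1.66%. In EV(245-255), summits of 2 and 11 fragments shared a −log10 Poisson p-value of 2.09 at a local background of 0.187 fragments. Summits of 1 and 10 fragments shared 1.45 at 0.825. At these heights the p-value did not follow the fragments, so the gap at the MTOR start does not show fewer fragments in EV(245-255). RICTOR, TSC2, DEPTOR and RPTOR rest on 5 to 14 fragments a library, and their intervals allow differences of over 1 log2 unit in either direction.

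For HA-RBN against EV(RBN), 5 genes had a shared end. The relative log2 ratio was 0.63 (−0.35 to 1.74) at RHEB, 0.41 (−0.86 to 1.88) at DEPTOR and 0.35 (−0.93 to 1.82) at MLST8. It was 0.02 (−1.43 to 1.67) at TSC1 and −0.08 (−2.21 to 2.50) at the upper end of RPTOR. The AKT1S1 site, compared after its values were seen, had −0.09 (−0.46 to 0.29). None was called, beside 5.19% of 9263 shared ends called higher and 7.07% called lower in HA-RBN. This depends on the scaling. Scaled by background, RHEB was called higher in HA-RBN at 1.14 (0.16 to 2.25), beside 21.1% of shared ends called higher and 1.92% called lower. Scaled by the median of all shared summits, RHEB at 1.25 (0.27 to 2.36) and DEPTOR at 1.04 (−0.23 to 2.50) were called higher, beside 26.0% called higher and 1.67% called lower. The AKT1S1 site had an interval above 0 with either of these scalings. Its ratio was 0.42 (0.055 to 0.80) by background and 0.53 (0.17 to 0.91) by the median of all shared summits. The further AKT1S1 summit near the lower end had 0.73 (−0.25 to 1.83) with the gene end centring and 1.24 (0.27 to 2.34) scaled by background. None of the 10 genes was listed in 1 library with no interval of the other at either end, beside 17.4% of all genes for HA-RBN only and 4.59% for EV(RBN) only. Judged at the same end, RPTOR with 6 fragments at its start and MAPKAP1 with 8 were listed only in HA-RBN, beside 28.8% of all genes, and none only in EV(RBN), beside 12.6%. MTOR, RICTOR, TSC2 and MAPKAP1 had summits in both libraries that were over 500 bp apart or at opposite ends.

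**Figure D4:**
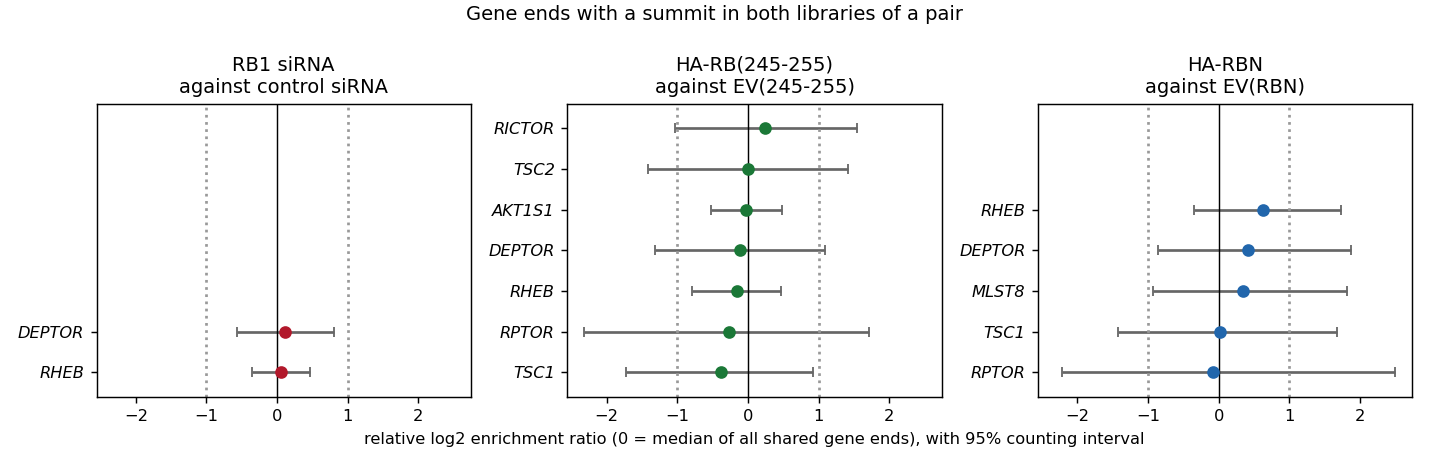
Relative log2 enrichment ratio (horizontal axis, 0 is the median of all shared gene ends of the pair) with its 95% counting interval, for the genes with a shared end in each pair. Dotted lines mark 1 log2 unit either way. All 14 points lie between −0.38 and 0.63, and every interval includes 0 with this centring.

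Inside the genes, the longest member RPTOR had a site that came back in all 6 libraries, about 216 kb from its start. The summits lay within 136 bp of each other, between 80760749 and 80760885. They held 21 fragments with RB1 siRNA and 17 with the control siRNA, then 23 in HA-RB(245-255), against 36 in EV(245-255), and 20 in HA-RBN and 7 in EV(RBN). The stack was taller than at the RPTOR start wherever both were listed. With the gene end centring its log2 ratio was 0.04 (−0.95 to 1.06) for RB1 siRNA against the control siRNA, −0.65 (−1.47 to 0.15) for HA-RB(245-255) against EV(245-255) and 0.21 (−1.09 to 1.70) for HA-RBN against EV(RBN). Scaled by background, the ratio of HA-RB(245-255) against EV(245-255) at this site was −1.06 (−1.88 to −0.27). A second RPTOR site, 89.3 to 89.8 kb from the start, was listed in 5 libraries with 4 to 11 fragments. A further one, near 418.7 kb, held 14 fragments in the control siRNA library, 30 in EV(245-255) and 21 in HA-RBN, and had no summit in the other 3 libraries.

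**Figure D5:**
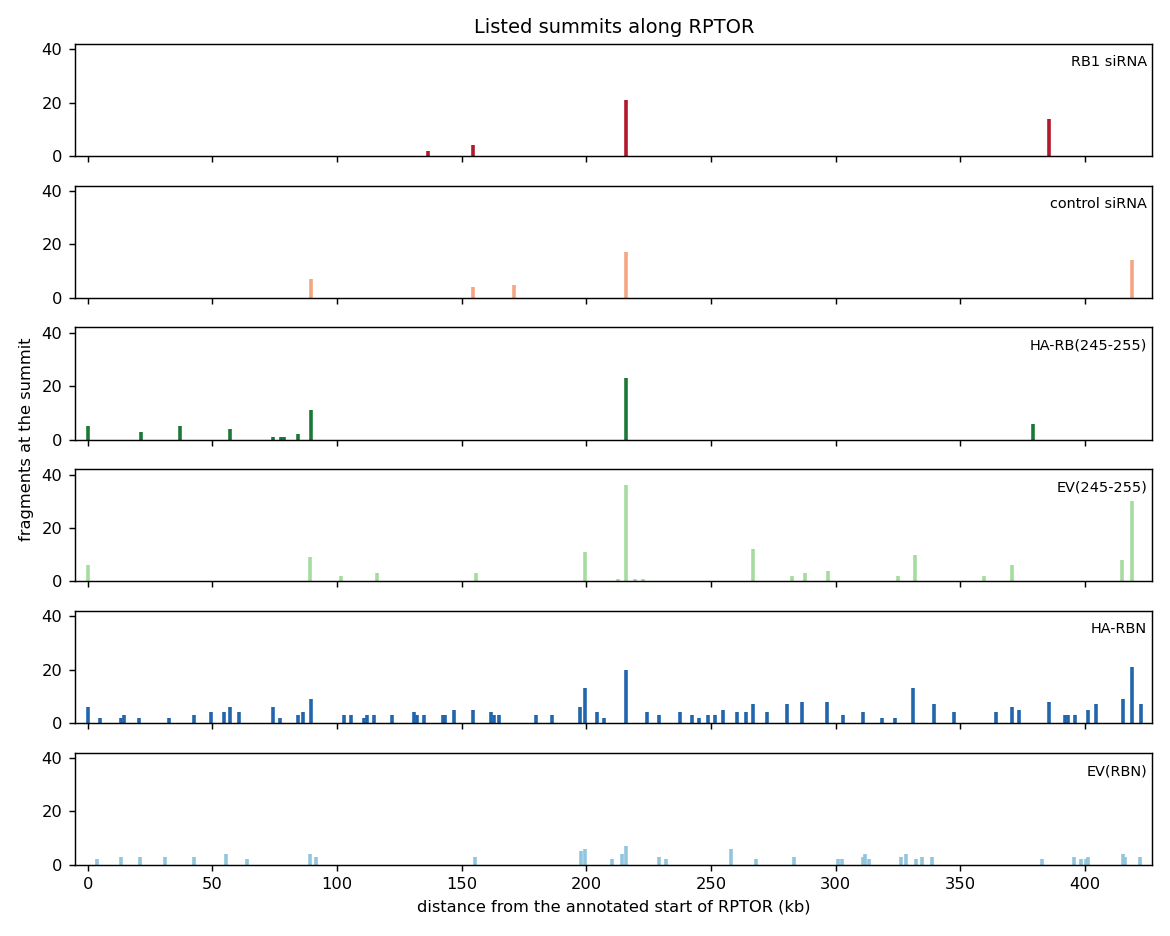
Fragments at each listed summit (vertical axis) along RPTOR (horizontal axis, kb from the annotated start) in the 6 libraries. A summit near 216 kb stands in every library, with 36 fragments in EV(245-255) and 7 in EV(RBN).

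DEPTOR had a site 109 kb from its lower end in 5 libraries, holding 6 fragments in the control siRNA library, 10 in HA-RB(245-255) and 7 in EV(245-255), and 9 in HA-RBN and 3 in EV(RBN). RPTOR and DEPTOR were the 2 genes with a body site in at least 5 libraries among the 5 members of at least 100 kb, beside 24.3% of 3356 genes of that length. MAPKAP1 had one in 4 libraries, 75 kb from its lower end, with 10 fragments with RB1 siRNA, 6 in HA-RB(245-255) and 9 in EV(245-255), and 8 in HA-RBN. TSC2 had a site 38 kb downstream, near its far end, with 15 fragments in HA-RB(245-255), and 37 in HA-RBN and 13 in EV(RBN). The TSC2 value in HA-RBN is above the 15 fragments at its start in the same library.

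Pooled over the 10 genes, body summits were as dense as in genes at large or denser in 5 of 6 libraries. They numbered 10 with RB1 siRNA and 9 with the control siRNA, then 42 in HA-RB(245-255), against 38 in EV(245-255), and 157 in HA-RBN and 86 in EV(RBN). Per megabase this was 7.67 with RB1 siRNA, beside 9.06 over all genes, and 6.90 with the control siRNA, beside 5.25. It was 32.2 in HA-RB(245-255), beside 30.1, and 29.1 in EV(245-255), beside 25.1. It was 120 in HA-RBN, beside 89.5, and 66.0 in EV(RBN), beside 57.8. These densities were higher in the lists with more intervals, so they cannot be compared between libraries. Of the body summits, RPTOR alone held 4 with RB1 siRNA and 5 with the control siRNA. It held 10 in HA-RB(245-255) and 19 in EV(245-255), and 71 in HA-RBN and 37 in EV(RBN). RPTOR is also the longest of the 10 genes, and its own density per megabase was 9.53 with RB1 siRNA and 11.9 with the control siRNA. In HA-RB(245-255) it was 23.8 and in EV(245-255) 45.3, and in HA-RBN 169 and in EV(RBN) 88.2. These lay below the pooled value in HA-RB(245-255) and above it elsewhere, so the pooled densities do not describe each of the 10 genes.

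Peak significance as the authors' caller gave it was low for most of these sites in the lists with wide intervals. Of the gene end summits of the 10 genes in those 4 lists, only those of AKT1S1 and RHEB had a −log10 q above 1. The AKT1S1 site reached 2.18 with RB1 siRNA and 5.07 with the control siRNA, and 3.69 in HA-RB(245-255) and 2.49 in EV(245-255). RHEB reached 2.18 with RB1 siRNA and 0.319 with the control siRNA, and 2.07 in HA-RB(245-255) and 0.157 in EV(245-255). In HA-RBN the values were 22.4 at RHEB and 123 at the AKT1S1 site, and in EV(RBN) 3.71 and 57.8 at the same genes.

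Among 48 other genes of the pathway, a gene end summit was found at 25 with RB1 siRNA and at 20 with the control siRNA, at 31 in HA-RB(245-255) and 32 in EV(245-255), and 43 in HA-RBN and 37 in EV(RBN). The highest median enrichment was 223 at PHLPP1, a phosphatase of AKT, above the 195 of RHEB. NPRL2 and NPRL3, subunits of the GATOR1 complex that lowers mTORC1 activity when amino acids are scarce, had 100.04 and 108. AKT1, SESN3 and PRR5L had no gene end summit in any library. In the RBN pair NPRL2 was called higher, with 41 fragments in HA-RBN and 8 in EV(RBN), at 1.05 (−0.06 to 2.36). ATG13, at 1.16, and PRKCA, at −1.30, were also called there, on 2 or 3 fragments in EV(RBN). None of the 48 was called in the siRNA pair.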

How the data were processed

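ChIP-seq peak lists of 6 libraries of 22RV1 cells were used, 1 per group of the 10 labelled samples. Data of the 4 IgG samples were not used here. The submitters' processing notes list MACS2 2.1.0, Bowtie 1.1.2, Trimmomatic 0.33 and bcl2fastq 2.17, with build hg38. The deposited lists give each peak's fold enrichment, −log10 p-value and −log10 q-value, which are the authors' own values, called per library. No read total is given in the sources used here.

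With fold enrichment as (pileup + 1)/(background + 1) and a Poisson p-value, each summit's whole number of fragments was solved (relative tolerance 5e-05). In the 4 lists with an IgG partner 1 fragment was worth 0.0166 to 0.0512. Where several numbers fitted, the lowest was taken. At the gene end summits of the 10 genes the next one was at least 426 fragments. The solver was tested on simulated data.

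Gene ends came from RefSeq GRCh38.p14 and promoter windows from its promoter table. The genes, lists and motifs were chosen with earlier results of these data known. The named genes are all 10 members, pathway genes over 1 log2 unit from the median or at the top or bottom of their group, genes sharing a summit with a member, and the 3 most like RHEB. Some genes that this rule takes are left out of the text. Python 3.11.15, numpy 2.4.6, pandas 2.3.3, scipy 1.17.1 and matplotlib 3.10.9 were used. Alternatives changed the window, the peak threshold, the distance between summits and the scaling.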

Additional observations from a re-analysis of the deposited data

How the results depend on the processing

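With 1 library per group, nothing measures the spread between cultures, and no direction given here was tested. No paired analysis was possible because each group has 1 library. Most of these summits hold under 25 fragments, which makes counting intervals wide, and each wide interval lists only its highest stack.

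With peaks of −log10 q of at least 5, the members with a gene end summit numbered 6 in HA-RBN, beside 30.1% of all genes, and 0 in RB1 siRNA, control siRNA, HA-RB(245-255), EV(245-255) and EV(RBN), beside at most 8.36%. The ratios could then not be had in any pair. With the transcription start only, which 7 genes have, the number was 1 with RB1 siRNA, 5 in EV(245-255) and 5 in EV(RBN). In EV(RBN) it was 4 with a 0.5 kb window (45.4% of all genes) and 1 with at least 10 fragments (11.3%). Where a missing summit counted as absence, AKT1S1 was listed only with RB1 siRNA (1 gene, beside 13.6% of all genes), RICTOR and TSC1 only with the control siRNA (2, 8.17%), MAPKAP1 only in HA-RB(245-255) (1, 14.2%) and AKT1S1 only in HA-RBN (1, 20.4%), each while an interval of the other library reached the gene. For AKT1S1 in HA-RBN the listing rests on the summit near its lower end, whose partner in EV(RBN) fell beyond the 1 kb line. Judged at the same end, the number was 1 for HA-RB(245-255) and 2 for HA-RBN.

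The median relative log2 ratio was 0.08 in the siRNA pair and −0.04 scaled by background. It ran from −0.52 to −0.02 in the 245-255 pair and from 0.04 to 0.97 in the RBN pair. In the RBN pair, 1 gene (RHEB) was called with scaling by background and 2 (RHEB and DEPTOR) by the median of all shared summits. Of 53 ratios of single genes under other settings, 46 kept their sign. Many of these could not change, because in the siRNA and 245-255 pairs another distance between summits left the ratios as they were. Scaled by background, RHEB and DEPTOR in the siRNA pair and RICTOR and TSC2 in the 245-255 pair turned negative. RPTOR in the RBN pair turned positive. The 2 kb window for body summits, absence at the same end, the calls under each scaling and the ratios at sites inside genes were added after seeing the data.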
